A study of Mus musculus with 6 samples.

Results

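The genes described here are 10 chains of the receptors through which T and NK lineage cells read IL-2, IL-15, IL-7, IL-4, IL-12 and IL-18: Il2ra, Il2rb, Il2rg, Il15ra, Il7r, Il4ra, Il12rb1, Il12rb2, Il18r1 and Il18rap. They were taken by gene symbol from a table of 17985 genes, and each symbol matched 1 row. RNA-seq gave their transcript levels in thymic iNKT1 cells, the T-bet-expressing subset of invariant natural killer T cells, of mice on a C57BL/6 background without treatment. The Ctrl group carried a Tbx21-driven Cre transgene and 2 copies of a Cre-activated YFP reporter at Rosa26 (Tbx21CreTg;Rosa26-LSL-YFP+/+). The cKO group carried the same alleles and, in addition, loxP-flanked Tgfbr2 (Tgfbr2F/F), the gene of a TGF-beta receptor chain. The Cre driver acts in cells that express Tbx21, so that the receptor gene is targeted after a cell has switched that promoter on. Each group had 3 libraries. Age, sex and the number of mice per library were not given in the sources used here, so p-values measure the spread between these libraries, which may be partly technical.

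IL-2 and IL-15 signal through the shared chains encoded by Il2rb and Il2rg, and the common gamma chain of Il2rg also serves the receptors of IL-7 and IL-4. Il2ra (CD25) and Il15ra encode private chains that raise the affinity for their cytokine, and signals of this family pass through JAK1, JAK3 and STAT5 or STAT6. IL-12 binds a pair of chains encoded by Il12rb1 and Il12rb2 and acts through STAT4, whereas the IL-18 receptor of Il18r1 and its accessory chain Il18rap belongs to the IL-1 receptor family and signals through MyD88 and IRAK kinases. In iNKT1 cells, IL-15 is known for its role in survival and maturation, and IL-12 with IL-18 for inducing interferon-gamma without antigen.

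Levels are given in CPM, a gene's reads divided by the library's total and put on 1 common scale, at totals from 28832779 to 68092478 reads. The libraries numbered replicate 3 stood apart from the other 4 in both groups: 4406 and 4590 genes were listed at 0 there, against at most 5 in any other library. All 10 receptor genes were read in every library, with no fewer than 273 reads. Tgfbr2 was at 425 to 461 CPM in Ctrl and at 258 to 289.8 CPM in cKO (limma adjusted p 0.0207, and 0.373 in the authors' deposited table). With any single library removed, its limma adjusted p lay between 0.0348 and 0.156, and it was under 0.05 in 1 of 6 such fits. The 10 iNKT1 marker genes fixed for the check were present in every library. Tbx21 was at 680 to 1027 CPM and Zbtb16 at 41.8 to 60.7 CPM. Not all of these markers were even. Klrb1c stood at 180 CPM in Ctrl replicate 2. The other Ctrl libraries had 566 and 703 CPM of it, and the cKO libraries had 640 to 1021 CPM. Ccl5 was higher in cKO (285 to 418 CPM) than in Ctrl (151 to 196 CPM). Its limma adjusted p was 0.0631, or 0.000780 with the replicate block explained below. Of the 10, only Xcl1 (lower) passed without that block, and Ccl5 and Xcl1 with it. The summed level of 4 B cell genes was at most 16.1 CPM and that of 5 myeloid genes at most 18.5 CPM, whereas 7 iNKT2 markers summed to 373 to 577 CPM. In that iNKT2 sum, Gata3 was at 173 to 209 CPM and Icos at 150 to 268 CPM over all libraries. Il4 was at 14.4 to 44.3 CPM and Ccr4 at 6.72 to 33.7 CPM.

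Of the 10 receptor transcripts, Il2ra alone rose by the main test, to 4.37 times its Ctrl level. That test was limma on log2(CPM + 1) without a term for the replicate number, at an adjusted p of 0.05. Higher calls made up 0.204% of the 15691 genes tested there. When the replicate number was added as a block, so that same-numbered libraries of the 2 groups were compared with each other, 5 of 10 receptor transcripts were higher (Il2ra, Il18rap, Il12rb1, Il12rb2 and Il2rb) where higher calls made up 1.24% of all genes tested. None of the 10 was lower by limma without or with the block, by edgeR with the block or by DESeq2, and 0 lower members had an unadjusted limma p under 0.05; lower calls made up 0.459% of all genes without the block and 1.64% with it. Same-numbered libraries deviated from their group means together in each of the 3 pairs, although Ctrl replicate 2 matched cKO replicate 1 best. Because both replicate 3 libraries stood apart, this does not settle how replicates 1 and 2 were paired. Both fits are given. The median change on the log2(CPM + 1) scale, called log2 change here, was 0.34 for the 10 beside -0.04 for all genes tested. In all 3 same-numbered pairs 8 of the 10 were higher in cKO and 1, Il7r, was lower, while 11.5% of all genes tested were higher and 18.5% lower in every pair. Every cKO library exceeded every Ctrl library for 3 receptors, Il2ra, Il12rb2 and Il18rap, a pattern met by 3.89% of all genes tested. These comparisons with all genes are descriptive, since the 10 genes were chosen with earlier results of these data known.

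**Figure D1:**
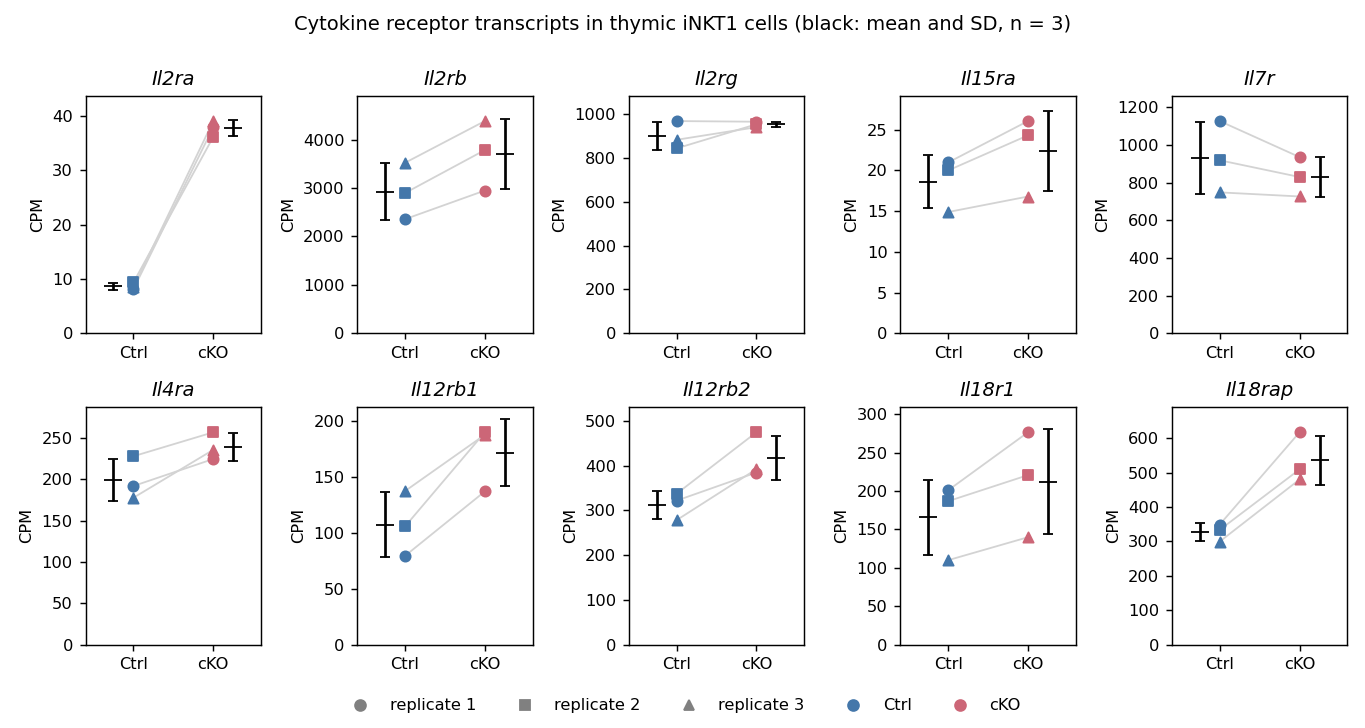
CPM of each receptor transcript (vertical axes, each from 0) in the 3 Ctrl and 3 cKO libraries; symbols mark the replicate number, grey lines join same-numbered libraries, and black bars show the mean and SD. The Il2ra points lie between 8.12 and 9.36 CPM in Ctrl and between 36.2 and 39.1 CPM in cKO, and the lines of Il2rb, Il12rb1, Il18r1 and Il18rap run upward in each pair although the groups of Il2rb, Il12rb1 and Il18r1 overlap.

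**Figure D2:**
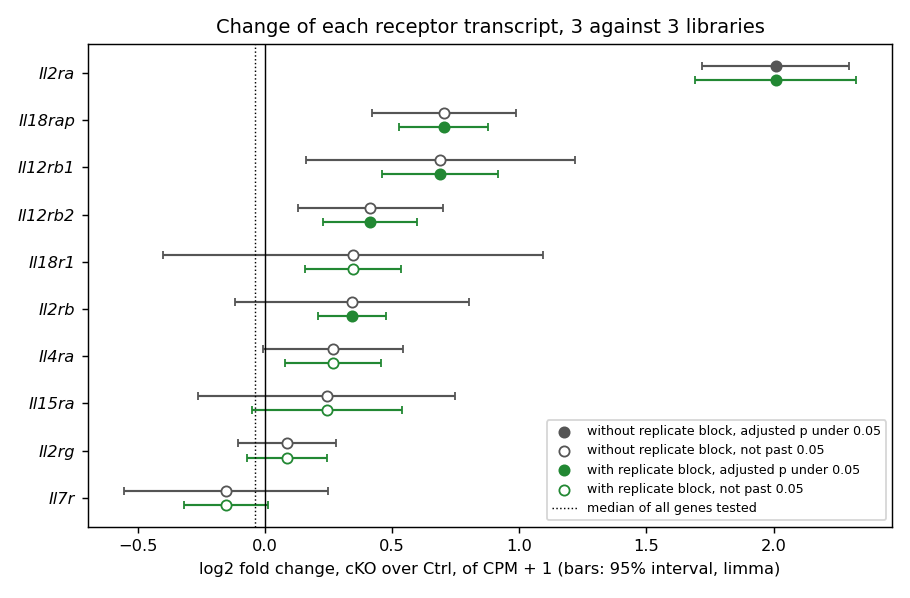
Log2 fold change of CPM + 1, cKO over Ctrl, for each receptor transcript (horizontal axis) with its 95% interval from limma, without (grey) and with (green) the replicate number as a block; filled points passed an adjusted p of 0.05. Il2ra stands at 2.01, and the intervals of Il18rap, Il12rb1, Il12rb2 and Il2rb are narrower with the block.

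Promoter sequences are shown for the 3 receptor genes that were higher with the block, had groups that did not overlap and were listed in the RefSeq promoter table (build GRCm38.p6), which covered 8 of the 10 genes. Each runs 5′ to 3′ on the gene's strand from 250 bases before the start of transcription to 50 bases after it. Capitals mark matches to any of 4 motifs searched on both strands: TTCNNNGAA (STAT factors), GTCTAGAC and CAGACAG (SMAD factors) and TCACACC (T-box factors). The windows are chr2:11642542-11642841 on the plus strand for Il2ra, chr6:67376139-67376438 on the minus strand for Il12rb2 and chr1:40515112-40515411 on the plus strand for Il18rap.
Il2ra: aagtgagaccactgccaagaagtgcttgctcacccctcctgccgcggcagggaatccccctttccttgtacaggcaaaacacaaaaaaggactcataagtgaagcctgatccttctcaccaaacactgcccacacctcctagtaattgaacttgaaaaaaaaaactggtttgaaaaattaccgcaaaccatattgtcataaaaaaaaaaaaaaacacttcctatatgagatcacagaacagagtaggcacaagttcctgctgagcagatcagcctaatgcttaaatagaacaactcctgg
Il12rb2: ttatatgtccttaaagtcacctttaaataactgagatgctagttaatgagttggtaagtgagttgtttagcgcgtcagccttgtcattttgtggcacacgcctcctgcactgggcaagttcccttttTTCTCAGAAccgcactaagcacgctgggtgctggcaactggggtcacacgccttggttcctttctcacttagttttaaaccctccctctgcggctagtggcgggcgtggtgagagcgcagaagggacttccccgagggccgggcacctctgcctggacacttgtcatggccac
Il18rap: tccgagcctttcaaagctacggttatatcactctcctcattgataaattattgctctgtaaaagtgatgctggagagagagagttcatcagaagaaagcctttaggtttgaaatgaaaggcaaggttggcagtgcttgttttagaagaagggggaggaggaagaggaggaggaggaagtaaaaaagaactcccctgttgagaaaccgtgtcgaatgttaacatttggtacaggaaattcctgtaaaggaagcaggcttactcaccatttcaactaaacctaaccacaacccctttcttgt
The Il12rb2 window held 1 STAT match, TTCTCAGAA, ahead of the start, and the windows of Il2ra and Il18rap held none of the 4 motifs. Of the 11 promoters listed for the 8 genes, 3 held the STAT motif, 1 each for Il7r, Il12rb2 and Il18r1. CAGACAG was found in 1 of the 11, that of Il7r, and the other motifs in 0. Among 32851 promoters of the same length, 8.30% held the STAT motif, 7.73% CAGACAG, 0.213% GTCTAGAC and 3.98% TCACACC. These matches are descriptions of letters in a short window.

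The IL-2 receptor alpha chain was the receptor transcript with the largest difference. Il2ra (ENSMUSG00000026770, chromosome 2, 11642807 to 11693193, plus strand, mm10) was read at 8.12, 9.36 and 8.44 CPM in the Ctrl libraries (here and below in the order of replicates 1, 2 and 3) and 37.9, 36.2 and 39.1 CPM in the cKO libraries. Both groups were tight and lay far apart. The mean rose from 8.64 ± 0.644 to 37.7 ± 1.47 CPM (SD, n = 3 each). The log2 change was 2.01 (SE 0.121), at a limma adjusted p of 0.00215. The pairs differed by 4.67-fold, 3.86-fold and 4.63-fold. Il2ra passed in all 15 alternatives and whichever of the 6 libraries was removed, and the authors' deposited table marks it as higher, at a log2 fold change of 2.20 (adjusted p 2.41e-09). These values rested on 273 to 447 reads in Ctrl libraries and 1094 to 2661 reads in cKO libraries.

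CD25 is also carried by regulatory T cells, so their other markers were read beside it. Foxp3, which was on that marker list, was not among the genes deposited, so it could not be read. Ikzf2, Ctla4 and Tnfrsf4 together stood at 40.7 to 47.1 CPM in Ctrl and 25.5 to 49.7 CPM in cKO, and none of the 3 passed without or with the block. The summed double-positive thymocyte markers did differ, at 129.6 to 138 CPM in Ctrl and 166 to 209.7 CPM in cKO, nearly all of it Cd4, which was at 112 to 129 and 144 to 194 CPM. Cd4 had a limma adjusted p of 0.325 without and 0.0169 with the block. The 6 epithelial, endothelial and stromal markers summed to 34.2 to 42.8 CPM in Ctrl and 58.4 to 75.2 CPM in cKO. Of these, only the adhesion gene Pecam1 passed, and it was higher (limma adjusted p 0.0423). When any single library was removed, Pecam1 had an adjusted p between 0.0518 and 0.224. Of 6 NK cell markers, summing to 44.4 to 82.0 and 80.8 to 128 CPM, the adaptor gene Tyrobp was higher (limma adjusted p 0.0410, and between 0.0638 and 0.216 with any single library removed), and the receptor gene Klrb1f was higher with the block only (0.0616 without, 0.00752 with). Klra4 and Klra8 did not pass, with log2 changes of -0.50 and -0.28. Of the 7 iNKT2 markers, whose sums overlapped between groups, none passed limma without the block, and with it Ccr4 (0.0115) and Plac8 (0.00613) were higher and Il4 was lower. The summed level of 5 iNKT17 markers was 21.9, 17.3 and 3.47 CPM in Ctrl and 26.8, 27.6 and 20.5 CPM in cKO. That sum was higher in cKO in each same-numbered pair, with overlapping groups, and none of the 5 passed without or with the block. The part of these markers in the receptor differences was not tested. In bulk libraries, more cells with the transcript and more transcript per cell cannot be told apart.

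The shared signalling chains of the IL-2 and IL-15 receptors were far more abundant. Il2rb (CD122; chromosome 15, 78480553 to 78495066, minus strand) gave 2357, 2896 and 3521 CPM in the Ctrl libraries against 2948, 3784 and 4383 CPM in cKO. Within each group replicate 1 was lowest and replicate 3 highest, so the groups overlapped although each cKO library exceeded its same-numbered Ctrl library by 1.25 to 1.31 times. The log2 change of 0.34 did not pass without the block (limma adjusted p 0.99998) and passed with it (0.0166); with the block and 1 pair left out it passed without replicate 3 but not without replicate 1 (0.0767) or replicate 2 (0.220). Il2rg, the common gamma chain (chromosome X, 101264378 to 101268255, minus strand), was at 844 to 969 CPM in Ctrl and 941 to 966 CPM in cKO. Its log2 change was 0.09 with a 95% interval from -0.07 to 0.25 with the block. Il15ra (chromosome 2, 11705290 to 11734317, plus strand), the private chain that presents IL-15, begins 12.1 kb beyond the end of Il2ra. It was read at 14.9 to 21.0 CPM in Ctrl and 16.8 to 26.0 CPM in cKO, with a log2 change of 0.24 that passed neither without (limma adjusted p 0.99998) nor with the block (0.512); it moved between 0.10 and 0.43 when Ctrl or cKO replicate 3 was left out.

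The private chains of the IL-7 and IL-4 receptors did not pass. Il7r (CD127; chromosome 15, 9506161 to 9529876, minus strand) gave 1128, 919 and 749 CPM in the Ctrl libraries against 936, 830.3 and 727 CPM in cKO. It was lower in each pair, by a factor from 0.830 to 0.971, and the groups overlapped. The log2 change was -0.15 with a 95% interval from -0.32 to 0.01 with the block, and the limma adjusted p was 0.442; without both replicate 3 libraries it was 0.0236 with the block, at -0.21. Leaving out 1 library moved the log2 change of Il7r without the block between -0.30 (without Ctrl replicate 3) and -0.0050 (without Ctrl replicate 1). Il4ra (chromosome 7, 125552282 to 125579472, plus strand) was at 192, 228 and 177 CPM in Ctrl and 224, 257 and 236 CPM in cKO. Its log2 change of 0.27 had an interval from 0.08 to 0.46 with the block and a limma adjusted p of 0.187.

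Both IL-12 receptor chains were higher with the block. Il12rb1 (chromosome 8, 70808449 to 70821424, plus strand), the chain shared with the IL-23 receptor, gave 79.4, 106 and 138 CPM in the Ctrl libraries against 137, 190.3 and 188 CPM in cKO. The lowest cKO library and the highest Ctrl library met at nearly the same value. Its means were 108 ± 29.1 (Ctrl) and 172 ± 30.0 CPM (cKO; SD, n = 3 each). The log2 change of 0.69 had limma adjusted p-values of 0.553 without and 0.00720 with the block. Il12rb2 (chromosome 6, 67291318 to 67376188, minus strand), the chain that recruits STAT4, was at 322, 337 and 278 CPM in Ctrl and at 385, 475 and 392 CPM in cKO. Here the groups did not overlap. The log2 change of 0.41 had limma adjusted p-values of 0.442 without and 0.0316 with the block. With the block and 1 pair left out, Il12rb1 passed each time, and Il12rb2 passed except without replicate 2 (0.218). In the GENCODE M21 annotation, exons of Il12rb2 share 1519 bases with exons of Serbp1 on the other strand, and whether the counting used strand was not given. Il2rg likewise shares 728 exon bases with Gm20489 on its own strand and Il4ra 571 with the antisense gene Gm44876. Serbp1 itself had means of 444 ± 15.7 (Ctrl) and 445 ± 21.2 CPM (cKO, SD, n = 3 each). By the deposited positions Serbp1 ends at 67289302, below the start of Il12rb2, so these genes do not overlap there.

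The IL-18 receptor chains lie side by side on chromosome 1, both on the plus strand, with 14.5 kb between them. Il18rap (40515362 to 40551705), the accessory chain, gave 349, 333 and 299 CPM in the Ctrl libraries against 617, 509 and 479.9 CPM in cKO. Each cKO library was well above each Ctrl library. The log2 change was 0.70 (SE 0.119); the limma adjusted p was 0.0795 without the block and 0.00158 with it, and in the authors' deposited table it was 0.0621. With the block and 1 pair left out, Il18rap passed each time. Il18r1 (40465552 to 40500854), the ligand-binding chain, was at 201, 187 and 110 CPM in Ctrl and at 276, 221 and 139.8 CPM in cKO. Both replicate 3 libraries were low, at 0.567 and 0.562 of the mean of their group's other 2, and this spread exceeded the difference between groups. It was 1.18 to 1.38 times higher in cKO in each pair, and the log2 change of 0.35 passed neither without (limma adjusted p 0.99998) nor with the block (0.0747). Without the block it moved to 0.08 when Ctrl replicate 3 was left out and to 0.62 when cKO replicate 3 was. The neighbouring genes of the same receptor family were much lower: Il1rl2 at 15.2 to 26.1 CPM, Il1rl1, which encodes the IL-33 receptor and ends just before Il18r1, at 0.510 to 9.84 CPM, and Il1r1 at 0.208 to 5.35 CPM. None of these 3 passed without or with the block.

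Because reads of 2 genes come from the same library, their ratio does not depend on library scaling. Il2ra was read at 0.00240 to 0.00344 of the Il2rb level in Ctrl and at 0.00892 to 0.0129 in cKO, so that the mean ratio of CPM values was 3.45 times higher and the groups did not overlap. The Il2rb over Il2rg ratio was 2.43, 3.43 and 3.99 in Ctrl replicates 1 to 3 and 3.05, 3.97 and 4.66 in cKO; it was higher in each pair, with overlapping groups. The Il7r over Il2rg ratio was lower in each pair, at 0.848 to 1.16 in Ctrl and 0.773 to 0.969 in cKO. Il18rap over Il18r1 was higher in each pair by nearly the same amount, 0.36, 0.37 and 0.33 on the log2 scale. Il12rb1 over Il12rb2 was higher in 2 pairs and lower in the third. With 3 libraries a group, the smallest p of an exact permutation test (two-sided) on 1 ratio is 0.1, and none of these ratios was tested.

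**Figure D3:**
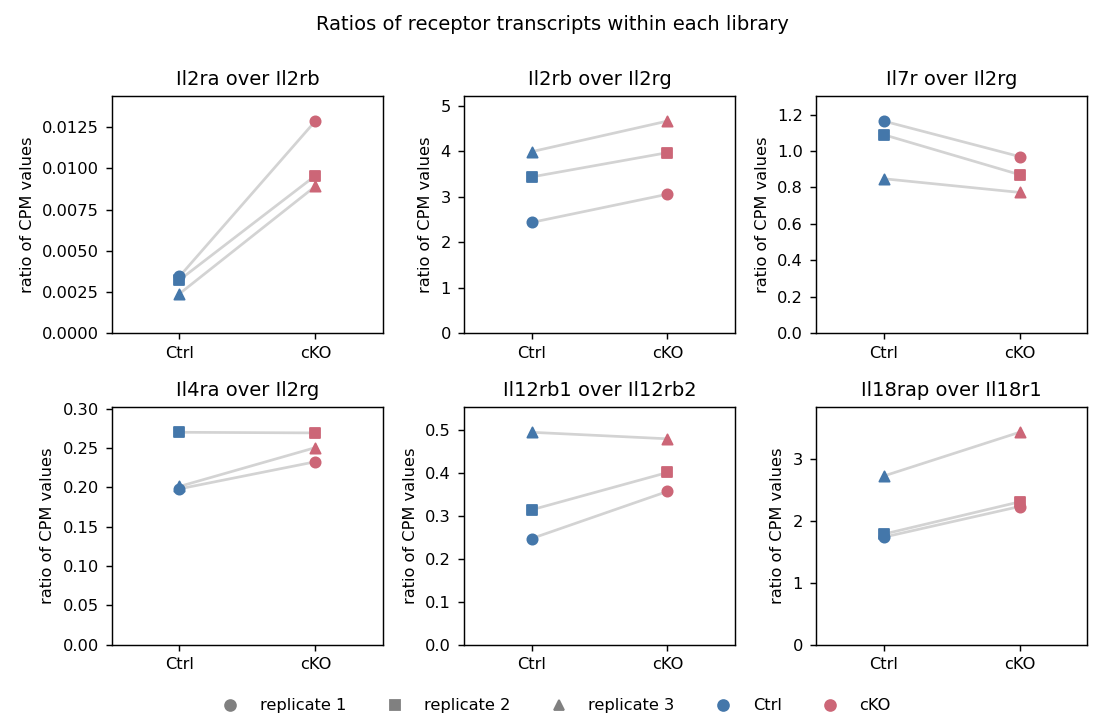
Ratio of the CPM values of 2 receptor transcripts within each library (vertical axes, from 0), with symbols for the replicate number and grey lines between same-numbered libraries. Il2ra over Il2rb is the ratio shown whose groups do not overlap; Il18rap over Il18r1 is higher in each cKO library than in the same-numbered Ctrl library.

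Levels of different receptors were compared per length of the gene. On the gene lengths deposited by the authors, Il2rb led in Ctrl with 638 ± 127 CPM per kb (SD, n = 3), followed by Il7r with 290.5 ± 59.2 and Il2rg with 216 ± 15.3. Il12rb2 had 55.8 ± 5.47, while Il4ra, Il12rb1 and Il18rap lay within their spread of each other at 39.1 ± 5.08, 37.5 ± 10.1 and 34.8 ± 2.69 CPM per kb. Il18r1 had 11.0 ± 3.24, Il2ra 1.46 ± 0.109 and Il15ra 0.900 ± 0.158 CPM per kb. Il2rb, Il7r and Il2rg each exceeded 99% of the genes tested on this scale, and Il2ra exceeded 36.0%. The deposited length of Il15ra is 20675 bases against 1600 bases for its APPRIS principal transcript, and that of Il18r1 15143 against 4158, so the order depends on the length used. On principal transcripts Il2rg ranked above Il7r, Il15ra (11.6 ± 2.04 CPM per kb) above Il2ra (1.96 ± 0.146), and Il18r1 reached 39.9 ± 11.8. In cKO, Il2ra reached 6.37 ± 0.248 CPM per kb on the deposited length and stayed ninth, and on principal transcripts it stayed the lowest of the 10.

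**Figure D4:**
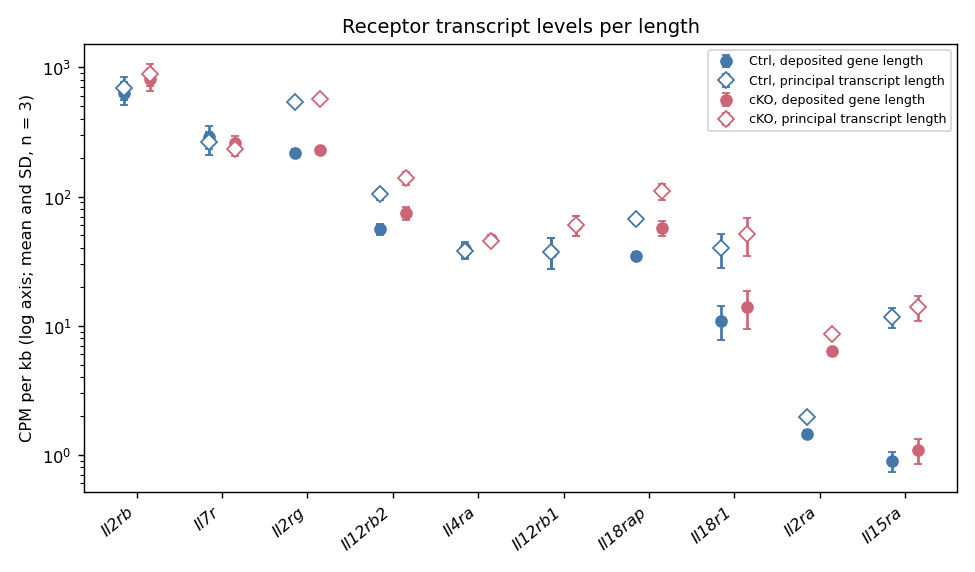
Mean level of each receptor transcript in CPM per kb on a log axis, with the SD over 3 libraries, by the deposited gene length (filled circles) and by the principal transcript length (open diamonds) in Ctrl (blue) and cKO (red). Il2rb is highest by either length, and the change of length moves Il15ra and Il18r1 most.

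The profile of Il2rb, lowest in replicate 1 and highest in replicate 3 with a step up in cKO, was shared by other genes. Among 10140 genes averaging 5 CPM or more, Phf11b was closest, with a root mean square difference of 0.0262 between log2(CPM + 1) values centred on each gene's mean over the 6 libraries. Arid3a (0.0600), Agpat3 (0.0705), Sesn1 (0.0732) and Tmem64 (0.0802) came next. Of the receptor genes, Il12rb1 was the nearest to Il2rb, at 0.196 and rank 512.

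Genes of the same pathways were read in 5 lists. Of 20 tested signal transducers 0 passed without the block and 2 were higher with it, with a list median of 0.03; 2 transducers had an unadjusted limma p under 0.05, and edgeR without the block called 0 and DESeq2 2. Over all 15691 genes tested, higher calls made up 0.204% and lower calls 0.459% without the block, and 1.24% and 1.64% with it. DESeq2 called 552 of these genes, and 944 had an unadjusted limma p under 0.05 without the block and 1981 with it. These values over all genes also stand beside the lists below. Stat4, the transducer of the IL-12 receptor, was at 149 to 179.7 CPM in Ctrl and 214 to 238 CPM in cKO (limma adjusted p 0.141 without and 0.0122 with the block). Irak2, a kinase of the MyD88 arm used by the IL-18 receptor, was at 58.1 to 63.6 CPM in Ctrl and 85.6 to 95.1 CPM in cKO (0.0552 and 0.0146). Each cKO library was above each Ctrl library for both genes, and each lost its call with the block when 1 pair was left out, Stat4 without replicate 2 (0.0928) and Irak2 without replicate 1 (0.0798). Jak1, Jak3, Stat5a, Stat5b and Stat6 did not pass, with log2 changes from -0.19 for Stat5a to -0.0043 for Jak3.

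Of 13 tested inhibitors, 1 rose without the block, and with it 1 was higher and 2 were lower; the list median was -0.02, and DESeq2 called 3. Socs3, a feedback inhibitor of cytokine receptors, rose from a Ctrl mean of 19.3 ± 1.57 CPM to a cKO mean of 38.5 ± 4.82 CPM (SD, n = 3 each). Its log2 change of 0.96 had a limma adjusted p of 0.0352, which moved to between 0.0627 and 0.171 when any single library was removed. Cish, an inhibitor that is itself a target of STAT5, gave 54.3, 103 and 98.5 CPM in the Ctrl libraries against 24.4, 36.6 and 41.3 CPM in cKO. It was lower in each pair, with a change of -1.27 on the log2 scale (limma adjusted p 0.239 without and 0.000406 with the block). Ptpn6, the phosphatase SHP-1, was at 1475 to 1688 CPM in Ctrl and 1151 to 1239.8 CPM in cKO (0.133 and 0.0205). With the block, Cish and Socs3 passed whichever pair was left out, and Ptpn6 passed except without replicate 1 (0.103).

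Of 5 tested ligand genes Il4 alone passed limma with the block and DESeq2 (adjusted p 0.0463), and none passed limma without the block; Il4 was lower, at 14.4 to 20.9 CPM in cKO against 24.6 to 44.3 CPM in Ctrl (limma adjusted p 0.421 without and 0.00806 with the block). Of 16 genes linked to the output of these receptors, Xcl1, a chemokine gene of activated NK and T cells, fell without the block (limma adjusted p 0.0281). Its means were 181 ± 26.6 (Ctrl) and 91.5 ± 6.51 CPM (cKO; SD, n = 3 each). Xcl1 and Cish were lower with the block. Cish and Socs2 also belong to the list of inhibitors above, so the call of Cish is the same one. Of the 16, 7 had an unadjusted limma p under 0.05 without the block and 11 with it, and DESeq2 called 5 (Ifng, Pim1, Gadd45g, Cish and Xcl1). Over all 15691 genes tested, the same counts were 944, 1981 and 552. When any single library was removed, the adjusted p of Xcl1 without the block lay between 0.0638 and 0.147. Ifng, the cytokine that IL-12 and IL-18 are known to induce, was at 33.2 to 37.1 CPM in Ctrl and 41.9 to 55.1 CPM in cKO, with a limma adjusted p of 0.458 without and 0.105 with the block. The median of that list was 0.11. Among 30 tested genes of other cytokine receptors 0 passed limma without or with the block, edgeR or DESeq2, and the median was -0.06. In this list 2 genes, Ifngr1 (higher) and Ifnar2 (lower), had an unadjusted limma p under 0.05, as did 944 of all 15691 genes tested.

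**Figure D5:**
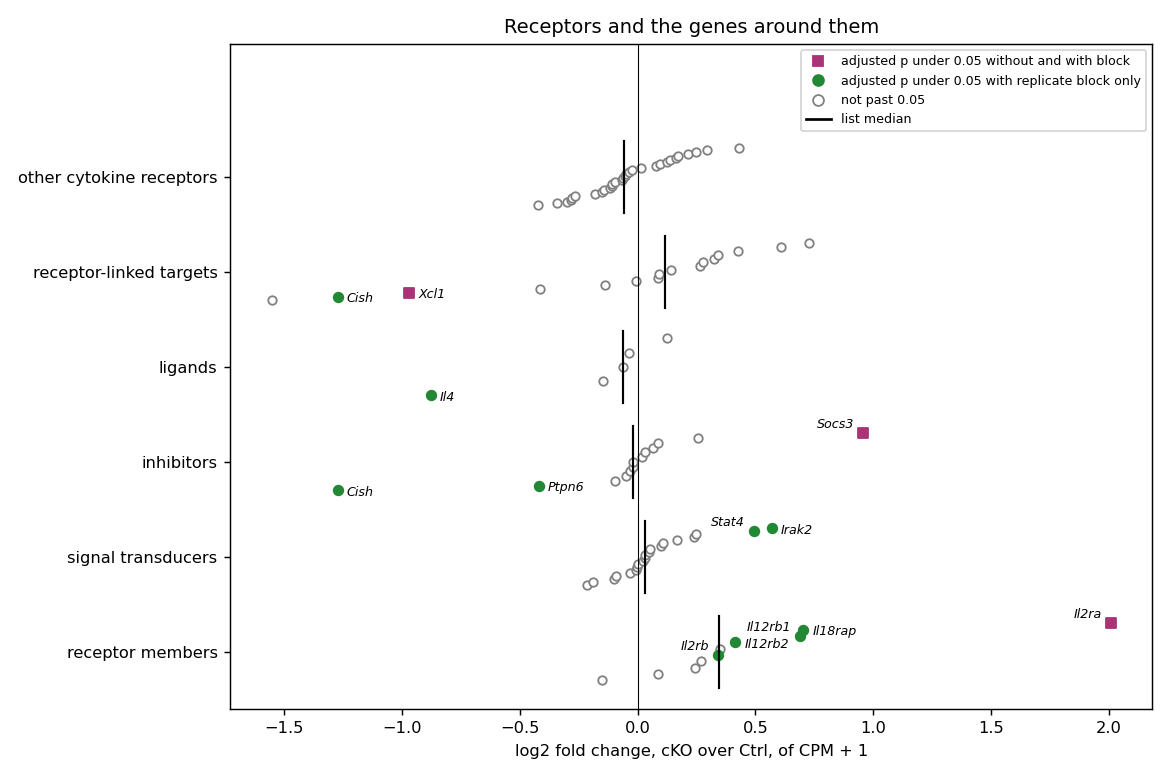
Log2 fold change of CPM + 1, cKO over Ctrl (horizontal axis), of each tested gene in the receptor set and in 5 lists around it, without (purple squares) and only with (green circles) the replicate block past an adjusted p of 0.05; black bars are list medians and points are spread vertically for legibility. The receptor median lies at 0.34, the other 5 medians between -0.06 and 0.11.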

How the data were processed

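The 6 libraries (3 Ctrl, 3 cKO) came as 1 table of 17985 genes. Per the labels' protocols, total RNA (Qiagen kit) was made into libraries with a NuGEN low-input system and sequenced on an Illumina NextSeq. Trimmomatic 0.33, STAR 2.5.2, HTSeq 0.6.1, edgeR and the build mm10 are named in the submitters' processing notes, with no order or settings; the annotation and strand setting were not given in the sources used here. The table's WT and KO columns were taken as Ctrl and cKO, which are the only groups and carry the same replicate numbers.

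The authors deposited values in CPM, without a between-library scaling factor that the values show. Per the file headers the table also holds their log2 fold change, mean log2 level, likelihood-ratio score, raw and adjusted p-value and gene length. In every library 100% of the CPM values were whole multiples of the value of 1 read within 0.01 reads, so reads were recovered; 1 read was worth 0.0147 to 0.0347 CPM. That depth covers counting error only.

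Genes whose 6 libraries averaged at least 1 CPM (15691, all 10 receptor genes among them) were tested in R 4.3.3 with limma 3.58.1 on log2(CPM + 1), a scale that understates changes of low genes, with no term but group, with trended and robust moderation and Benjamini-Hochberg adjustment over all genes tested. Adjusted p-values are limma's unless another tool is named. Deviations from the group means correlated between same-numbered libraries at 0.855, 0.687 and 0.924. The labels state no pairing, and the numbers were treated as pairs only in the fits with the block. The fit with the replicate number as a block is given where it changes a call. Since both replicate 3 libraries stood apart, replicates 1 and 2 would also correlate if matched the other way. The correlations therefore do not settle how replicates 1 and 2 were paired. Alternatives were other pseudocounts, filters, scalings, limma-voom, edgeR 4.0.16 and DESeq2 1.42.0 on the recovered reads, replicates 1 and 2 alone, and each library left out. The scripts were tested on simulated data. No set test was run. The fits with the block and 1 pair left out were added after the data had been seen.

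The receptor genes and the lists around them were chosen with earlier results of these data known. The genes named were all 10 receptors, Tgfbr2, up to 4 genes per list past the threshold without or with the block, the 5 profiles closest to Il2rb, and the neighbours of Il18r1; other listed genes were named after their values were seen. Positions are those of the deposited table. Principal transcript lengths and exon overlaps are from GENCODE M21 (GRCm38), and promoters from RefSeq (GRCm38.p6). Reads of overlapping or near-identical genes may be assigned to either. Protein sequences were not analysed here.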

Additional observations from a re-analysis of the deposited data

How the results depend on the processing

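Over the 15 alternatives that kept each library or dropped both replicate 3 libraries, Il2ra passed in all 15, Il18rap in 10, Il12rb2 in 5, Il2rb and Il12rb1 in 4 each and Il18r1 in 1, and no receptor changed direction in these or in the fits that left out libraries. The number of receptor transcripts called was 1, and moved to 2 with a mean of at least 5 CPM, limma-voom, TMM scaling, replicates 1 and 2 only or DESeq2-type size factors, to 3 with DESeq2, to 5 with the replicate block alone or with TMM or upper quartile scaling, and to 6 with edgeR and the replicate block. It stayed at 1 in each fit that left out 1 library (1 to 1).

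Over all genes, 104 passed (32 higher, 72 lower), against 451 with the replicate block (194 and 257), 513 with the block and TMM scaling (244 and 269), 477 with the block and upper quartile scaling, 469 with edgeR and the replicate block, 41 with edgeR alone, 61 with limma-voom, 552 with DESeq2 (no adjusted p for 3042 genes), 291 in replicates 1 and 2 and 26 at a threshold of 0.01; leaving out 1 library gave 14 to 85. With the block and 1 pair left out, with 1 residual degree of freedom left, receptors called were 4 without replicate 1, 3 without replicate 2 and 7 without replicate 3, the last with Il7r lower, among 388, 387 and 943 genes. Apart from fewer libraries, the cause was not tested.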
